A study of Homo sapiens with 60 samples.

Results

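The respiratory chain of human cells is assembled from subunits of separate genetic origin, and the 42 genes described here set these origins side by side. They are 13 protein genes of the mitochondrial genome and 29 nuclear genes for subunits of complexes I to IV, taken from a named list and matched by symbol to the 60675 gene IDs of the count table. The mitochondrial members encode 7 subunits of complex I, 1 of complex III, 3 of complex IV and 2 of complex V. The nuclear members encode 13 subunits of complex I, all 4 of complex II, 6 of complex III and 6 of complex IV. No nuclear complex V gene is among them, so the 18 nuclear complex V genes are given as a separate list. All 42 were found and all 42 passed the filter on low counts, in a table of 16982 genes tested.

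The cells were HepG2, an established line from a human hepatocellular carcinoma, treated for 24 h with 70% ethanol extracts of 4 herbs (Aucklandiae Radix, Polygalae Radix, Saposhnikoviae Radix and Menthae Herba) or of 4 decoctions (Guibi-tang, Soyo-san, Okbyeongpung-san and Saengmaek-san). Polygalae Radix was given at 10, 50 and 250 ug/mL and Aucklandiae Radix at 11.2, 56 and 280 ug/mL, where the highest dose was the one giving 20% inhibition. The other 6 extracts were given at 20, 100 and 500 ug/mL. These doses are called low, medium and high, and each extract's own low dose is the main reference. The vehicle control received DMSO alone, 0.1% by the sample labels and 2% by the design text. Each dose had 3 libraries for Guibi-tang, Saengmaek-san, Menthae Herba and Saposhnikoviae Radix, 2 for Polygalae Radix, Aucklandiae Radix and Soyo-san, and 1 for Okbyeongpung-san, and the vehicle had 3, which makes 60 libraries. By the first number of their sample codes the extracts fall in pairs, called sets here. Set 11 holds Polygalae Radix and Aucklandiae Radix, and set 12 holds Menthae Herba and Saposhnikoviae Radix. Set 13 holds Saengmaek-san and Guibi-tang, and set 14 both remaining decoctions. What this number stands for is not given in the sources used here, and the titles of all libraries, vehicle included, carry the label BatchD. The vehicle libraries carry a set label of their own. Replicates of Polygalae Radix and Aucklandiae Radix are numbered 2 and 3. Whether replicates came from separate cultures is not stated in the labels, so the spread behind every p-value is that between libraries and may be technical.

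Respiratory complexes I, III and IV pump protons across the inner mitochondrial membrane, complex II feeds electrons from succinate into the chain, and complex V makes ATP from the proton gradient. Complexes I, III, IV and V mix subunits of both genomes, while complex II is wholly nuclear. The mitochondrial genes are transcribed as long precursors from both strands of a circular genome by a nuclear-encoded polymerase and cut apart afterwards. MT-ND6 is the only protein gene on the light-strand transcript. The nuclear genes each have their own promoter, and the factors NRF1, GABPA (also called NRF2) and YY1 are known to act on many of them.

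Some mitochondrial genes overlap, and the overlap limits how their counts can be separated. MT-ATP8 (chrM:8366-8572, GRCh38) and MT-ATP6 (chrM:8527-9207) share 46 bases of one transcript, read in different frames. The shared stretch, with the start codon of MT-ATP6 in capitals, is shown because reads that lie within it belong to both genes.
MT-ATP8 and MT-ATP6, chrM:8527-8572, plus strand: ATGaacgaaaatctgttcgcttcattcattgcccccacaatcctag
MT-ND4L (chrM:10470-10766) and MT-ND4 (chrM:10760-12137) share 7 bases in the same way. MT-ND6 (chrM:14149-14673) lies on the opposite strand to the other 12. Whether the counting used strand is not given in the sources used here, so its reads cannot be told apart from antisense transcripts of the same stretch.

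The promoters of 4 nuclear members that differ widely in response are shown, from RefSeq transcript starts on GRCh38.p14. The stretches below end at the last base before the start. Capitals mark matches, on either strand, to the NRF1 motif GCGCANGCG and, in SDHD, also to the ETS motif CCGGAAG that GABPA binds. SDHA and UQCRC1 are shown because they fell most at the high dose of Polygalae Radix, UQCRFS1 because it alone was not called there, and SDHD because it fell least among those called.
SDHA, chr5:218120-218319, plus strand: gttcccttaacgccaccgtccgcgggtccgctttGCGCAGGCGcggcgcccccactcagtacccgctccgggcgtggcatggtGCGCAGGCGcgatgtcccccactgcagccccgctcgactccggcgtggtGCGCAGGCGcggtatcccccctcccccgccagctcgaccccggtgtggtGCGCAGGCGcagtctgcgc
UQCRC1, chr3:48609647-48609706, minus strand: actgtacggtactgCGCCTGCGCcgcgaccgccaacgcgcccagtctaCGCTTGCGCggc
UQCRFS1, chr19:29213152-29213211, minus strand: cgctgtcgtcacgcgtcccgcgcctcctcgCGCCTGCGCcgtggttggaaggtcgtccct
SDHD, chr11:112086743-112086872, plus strand: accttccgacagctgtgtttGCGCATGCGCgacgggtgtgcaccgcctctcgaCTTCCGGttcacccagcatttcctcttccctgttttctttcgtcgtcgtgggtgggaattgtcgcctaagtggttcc
SDHA held 4 matches to the NRF1 motif, each 49 bases from the next, and SDHD held 2 that overlap. NRF1 matches stood before genes that fell strongly and before a gene that was not called. A match is a description of these letters and not a shown binding site.

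Depth ran from 17518479 to 38905899 counts per library, and each mitochondrial member had at least 11778 counts in every library. All 37 genes of the mitochondrial genome together held 8.02% to 19.14% of counts. Markers of hepatocytes were present in every library: 10 such genes, albumin (ALB) among them, summed to 19600 to 52400 CPM (counts scaled to the size of the library). The sum was lowest at the high doses of Polygalae Radix and Aucklandiae Radix. In the former it was 19600 and 23600, against 47300 and 49000 at the low dose. In the latter it was 22100 and 23000, against 46500 and 47200. Of the 10 genes 8 and 10 were called lower there, where 33% and 35.5% of all genes tested were. At the high dose of Guibi-tang 9 of the 10 were called lower, where 17.5% of all genes tested were. Markers of blood cells summed to 649 to 1690 CPM, nearly all from LYZ, those of stromal cells to 5.19 to 18.5 CPM and those of endothelial cells to 2.7 to 7.3 CPM. HBB and DCN were at 0 in all 60 libraries. The dependence of log2 abundance on transcript GC content, per 10 percentage points, was 0.087, 0.198 and 0.2 in vehicle, 0.105 and -0.087 at the high dose of Polygalae Radix, and -0.106 and -0.083 at the high dose of Aucklandiae Radix. The part of hepatocyte markers in the results below was not tested. With the GC trend removed, the counts of members called in those extracts were 5 mitochondrial and 28 nuclear for Polygalae Radix and 12 and 22 for Aucklandiae Radix, close to those given below.

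Mitochondrial transcripts far exceeded their nuclear partners in level. In the 18 low-dose libraries of the 7 extracts with replicates, the median over the 13 mitochondrial members was 7636 CPM per kilobase of transcript, and over the 29 nuclear members it was 43.6, a ratio of 175. MT-CO2, a catalytic subunit of cytochrome c oxidase (complex IV), was the highest at 14402 CPM per kilobase, and MT-ND6 of complex I the lowest of its genome at 1997. Of the nuclear members COX4I1 of complex IV was the highest at 181 CPM per kilobase. NDUFA9 of complex I was the lowest at 5.3, on a reference transcript of 8363 bases. The nuclear medians by complex were 36.6 CPM per kilobase for complex I, 39.4 for complex II, 77 for complex III and 79.5 for complex IV, so the medians of complexes III and IV were above those of I and II. Single genes overlapped widely, from 12.8 to 112 in complex III and from 5.3 to 87.4 in complex I. Within complex II, levels per kilobase ran from 8.16 for SDHC, on a reference transcript of 13566 bases, to 65.2 for SDHA, on 2390 bases. In complex III the lowest was UQCRB, on 5575 bases, and the highest UQCRH, on 604. These ranges, the medians by complex and the ratio of 175 therefore depend on the transcript chosen. Not divided by length, the mean levels at the low dose of Menthae Herba were 114 CPM for SDHC and 159 for SDHA. They were 71.7 CPM for UQCRB and 66.4 for UQCRH.

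The balance between the genomes moved in opposite directions under Polygalae Radix and Aucklandiae Radix. As shares of all counts, the 13 mitochondrial members held 10.2% and 9.46% at the low dose of Polygalae Radix and 12.6% and 13.4% at the high dose, while the 29 nuclear members held 0.244% and 0.25% and then 0.154% and 0.157%. Neither share overlapped between these doses. For Aucklandiae Radix the mitochondrial share was 11.4% and 9.71% at the low dose and 5.14% and 5.39% at the high dose, and the nuclear share was 0.237% and 0.247% and then 0.194% and 0.202%. Both shares were lower at the high dose, without overlap.

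The ratio of summed mitochondrial to summed nuclear CPM expresses this in 1 number per library. It was 39.8 ± 2.65 (SD, n = 2) at the low dose of Polygalae Radix, 46.8 ± 6.47 at the medium dose and 83.6 ± 2.86 at the high dose. It was 43.6 ± 6.12 (SD, n = 2) at the low dose of Aucklandiae Radix, 37.7 ± 3.26 at the medium dose and 26.6 ± 0.159 at the high dose. On the log2 scale the high dose minus the low dose was 1.07 for Polygalae Radix and -0.71 for Aucklandiae Radix, and in neither did the libraries overlap. With 2 libraries against 2, no exact permutation test of this ratio can reach a p under 0.05, so none is given. For the other 6 extracts the difference lay between -0.09 and 0.26 and, where there were replicates, the libraries of both doses overlapped. The vehicle ratio was 67.3 ± 12.4 (SD, n = 3), with single libraries at 81.6, 59.3 and 61.1, above the mean of the low dose of every extract. In bulk samples, a change in the cells present and a change in RNA per cell cannot be told apart, and this holds for every result below.

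**Figure D1:**
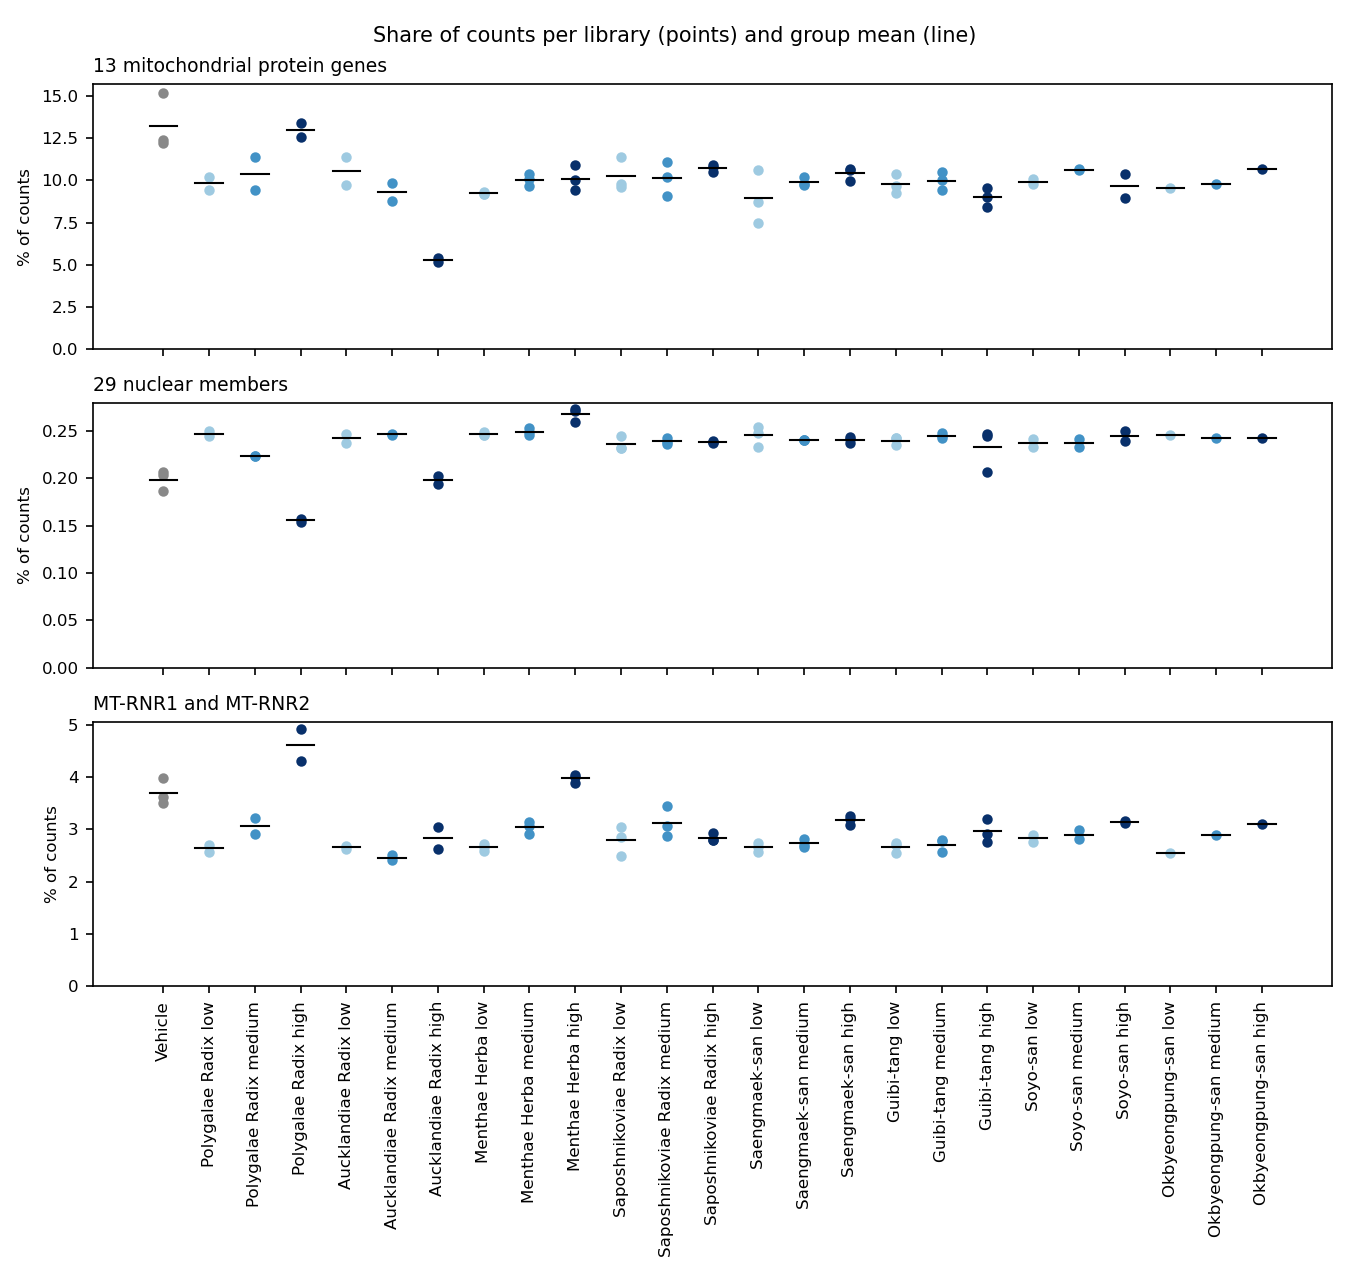
Share of all counts (%) in each library held by the 13 mitochondrial members, the 29 nuclear members and both mitochondrial rRNA genes, 1 panel each, by extract and dose. Points are libraries. The mitochondrial share is lowest at the high dose of Aucklandiae Radix (5.14% and 5.39%), and the nuclear share is lowest at the high dose of Polygalae Radix (0.154% and 0.157%).

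Nearly all nuclear subunits fell at the high dose of Polygalae Radix. Of 29 nuclear members 28 were lower than at the low dose and none was higher, where 33% of all genes tested were called lower and 31.1% higher (edgeR quasi-likelihood test, Benjamini-Hochberg adjusted p under 0.05). Their median log2 fold change was -0.72, against -0.01 over all genes. SDHA, the flavoprotein that oxidises succinate in complex II, had 148 and 161 CPM at the low dose and 46.3 and 42.4 at the high dose, a log2 fold change of -1.81 (SE 0.06, adjusted p = 5.52e-30). UQCRC1, a core protein of complex III, had 156 and 153 CPM and then 52.2 and 47, a change of -1.65 (SE 0.06, adjusted p = 3.3e-27). In both genes every high-dose library lay far below every low-dose library. The summed hepatocyte markers fell between the same libraries, as given above.

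UQCRC2, the other core protein of complex III, had 264 and 275 CPM at the low dose and 87 and 101 at the high dose (log2 fold change -1.53, SE 0.05, adjusted p = 2.13e-30). The fall reached all 4 complexes: 13 of 13 nuclear complex I members, 4 of 4 in complex II, 5 of 6 in complex III and 6 of 6 in complex IV were lower, with medians of -0.79, -0.85, -0.64 and -0.56. In complex I the largest falls were those of NDUFV1, the subunit that binds NADH (-1.27), and NDUFS1, the largest iron-sulphur subunit (-1.25). In complex IV it was that of COX5B (75.9 and 75.2 CPM at the low dose, 33.9 and 36.6 at the high dose, -1.11). The smallest called fall was that of SDHD, a membrane anchor of complex II, at -0.23 (SE 0.08, adjusted p = 0.013). That call was lost without replicate 2 of the high dose (adjusted p = 0.317) or of the low dose (0.13).

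UQCRFS1, the Rieske iron-sulphur protein of complex III, did not follow. It had 71.6 and 86.8 CPM at the low dose and 78.9 and 76.5 at the high dose (-0.04, SE 0.07, adjusted p = 0.608), and its libraries overlapped. Complex III thus held UQCRC1 and UQCRC2, with the largest falls after SDHA, and the 1 nuclear member not called. Without overlap between doses were 28 nuclear members, all lower, where 76.8% of all genes tested did not overlap. SDHA has near-identical pseudogene copies in the genome, and how the authors' counting shared reads among them is uncertain. Set against vehicle instead of the low dose, 17 nuclear members were lower and 3 higher (33.8% and 33.1% of all genes called), and SDHA stayed at -1.87.

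The mitochondrial members did not fall with them. All 13 had a log2 fold change above 0 at the high dose of Polygalae Radix, from 0.01 for MT-ND4 to 0.51 for MT-ATP8, and 4 were called higher, which is a share near the 31.1% of all genes called higher. MT-CYB, the cytochrome b of complex III, had 7375 and 6042 CPM at the low dose and 8875 and 10016 at the high dose (0.49, SE 0.11, adjusted p = 0.000163). MT-CO1, the catalytic core of complex IV, had 18360 and 17570 CPM and then 21741 and 22978 (0.31, SE 0.11, adjusted p = 0.00959). MT-CO3 rose by 0.43 and MT-ATP8 by 0.51, and in all 4 genes both high-dose libraries lay above both low-dose libraries. Of the 13 members 10 (76.9%) did not overlap between doses, which is near the 76.8% of all genes tested. Of the 7 complex I genes none was called, MT-ND6 among them (1137 and 1042 CPM, then 1152 and 1324). MT-CYB and UQCRC1, which sit in the same complex, thus changed in opposite directions from the low dose.

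The number of mitochondrial calls varied with the fit, the reference and single libraries. It was 11 with no low-count filter and 8 with only the groups compared in the fit, all higher. Against vehicle, 8 mitochondrial members were lower and none was higher (33.8% of all genes called lower), with MT-CO1 at -0.21 and MT-ND6 at -0.61. MT-CYB stood at 0.02 against vehicle and was not called. Without replicate 3 of the low dose 1 was called, and without replicate 3 of the high dose 2 were.

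**Figure D2:**
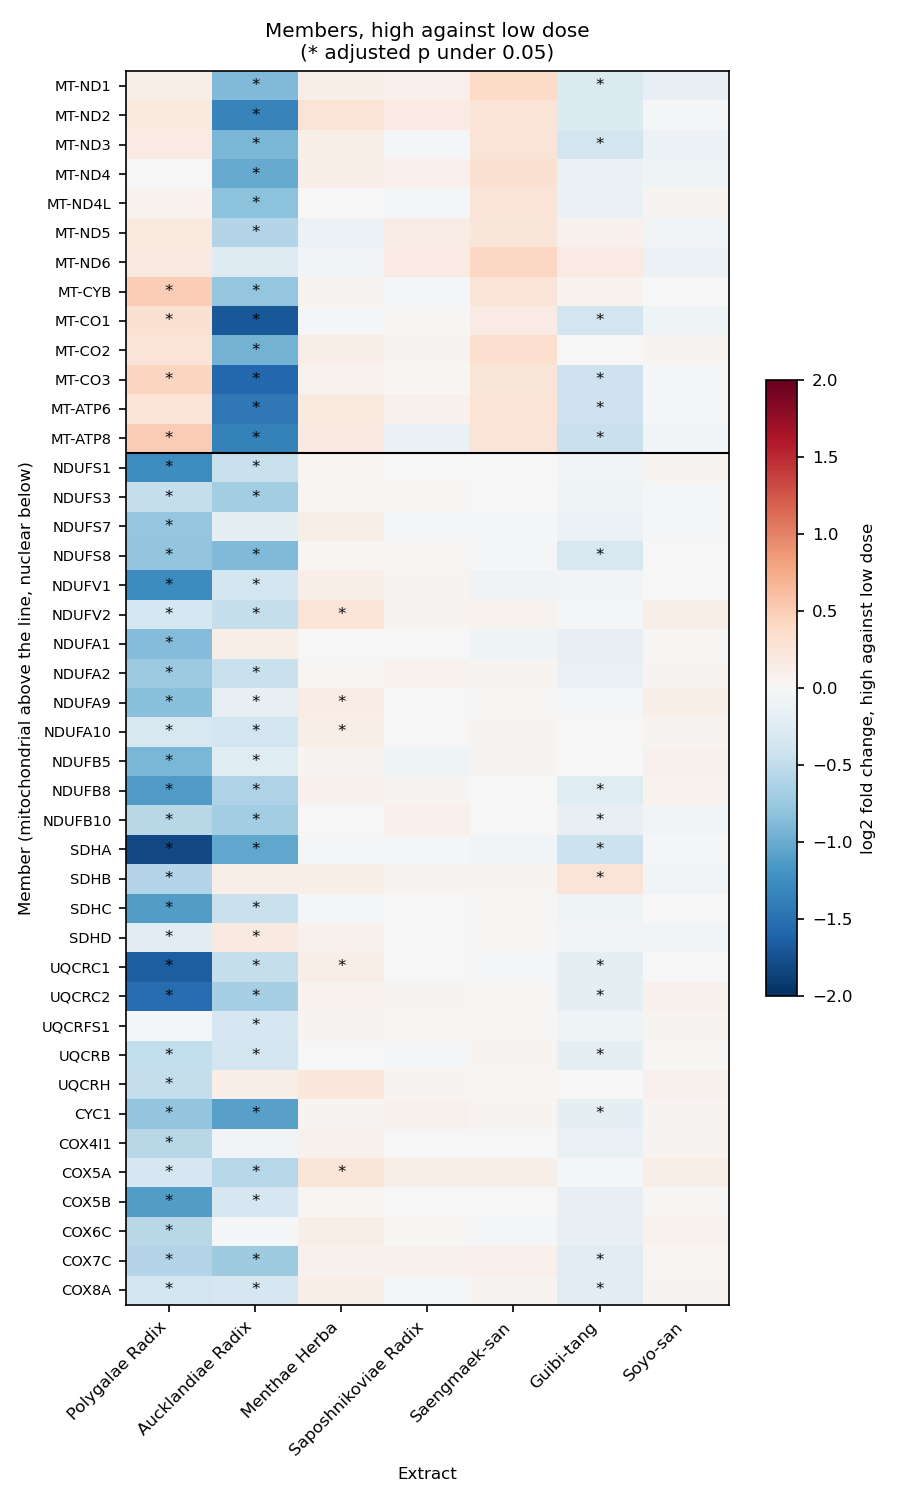
Log2 fold change of the high against the low dose for all 42 members (rows, grouped by genome and complex) in the 7 extracts with replicates (columns), with a star where the adjusted p was under 0.05. Polygalae Radix is lower through nearly the whole nuclear block (28 of 29 called), Aucklandiae Radix is lower in both blocks (12 of 13 and 22 of 29), and Saposhnikoviae Radix, Saengmaek-san and Soyo-san carry no star.

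Aucklandiae Radix at its high dose lowered transcripts of both genomes, with a lower median for the mitochondrial ones. Of 13 mitochondrial members 12 were lower, where 35.5% of all genes tested were called lower, and their median was -0.95, against -0.02 over all genes. MT-CO1 had 21444 and 18673 CPM at the low dose and 5914 and 6516 at the high dose (-1.69, SE 0.11, adjusted p = 1.12e-18). MT-CO3, also of complex IV, had 11090 and 9297 CPM and then 3385 and 3488 (-1.57, SE 0.13, adjusted p = 6.4e-15). MT-ATP6, the proton channel subunit of complex V, had 9934 and 7306 CPM and then 3133 and 3279 (-1.43, SE 0.15, adjusted p = 5.69e-12). In these 3 genes both high-dose libraries lay well below the lower of the low-dose libraries.

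Members differed in how far they fell. MT-ND2 (-1.34) and MT-ATP8 (-1.35) fell nearly as much as MT-ATP6, MT-CYB by less (-0.78, SE 0.11) and MT-ND5 least among those called (-0.59, SE 0.12). MT-ND6 had 1604 and 969 CPM at the low dose and 1110 and 1047 at the high dose (-0.26, SE 0.18, adjusted p = 0.211). Its low-dose libraries lay on both sides of the high-dose ones, and it was the member of this genome not called. The 12 members called were also those without overlap between doses, where 84.5% of all genes tested did not overlap.

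Of the nuclear members 22 fell and 1 rose at the high dose of Aucklandiae Radix. Of all genes tested 35.5% were called lower and 33.9% higher. The nuclear median was -0.38. CYC1, the cytochrome c1 of complex III, had 95.4 and 92.9 CPM at the low dose and 41.4 and 48.3 at the high dose (-1.08, SE 0.08, adjusted p = 4.57e-16). SDHA had 149 and 157 CPM and then 69.7 and 79.1 (-1.04, SE 0.05, adjusted p = 1.31e-21). NDUFS8, an iron-sulphur subunit of complex I, had 49.8 and 55 CPM and then 29.2 and 27.9 (-0.88, SE 0.11, adjusted p = 1.35e-09). In these genes the doses did not overlap, as in 93.1% of nuclear members and 84.5% of all genes tested. SDHD was the one that rose, from 56.6 and 53.6 to 65.5 and 60.2 CPM (0.18, SE 0.08, adjusted p = 0.0437). Its call was lost with no low-count filter (adjusted p = 0.0974) and with the GC trend removed (0.255), and without replicate 2 of the high dose or either low-dose library (0.0712 to 0.294). COX4I1 of complex IV had 155 and 160 CPM and then 145 and 158, which overlap, and NDUFS7, NDUFA1, SDHB, UQCRH and COX6C were not called either.

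The responses to the extracts of set 11 differed gene by gene. The change from low to high dose was lower under Aucklandiae Radix than under Polygalae Radix for 12 of 13 mitochondrial members (28.7% of all genes tested had a lower change, 31.4% a higher one), by an interaction term in the same edgeR fit. The difference of log2 fold changes was -2.0 for MT-CO1 (SE 0.15, adjusted p = 5.95e-16) and -2.0 for MT-CO3 (SE 0.18, adjusted p = 2.15e-13), and -0.44 for MT-ND6 (SE 0.26, adjusted p = 0.147). Of the nuclear members 17 had a higher change under Aucklandiae Radix, led by UQCRC1 (1.17, SE 0.08, adjusted p = 1.27e-16) and NDUFA1 (0.98, SE 0.16, adjusted p = 1.17e-06), and 2 had a lower one, UQCRFS1 and CYC1 (both -0.29). The high doses compared were 250 and 280 ug/mL, which differ. CYC1 no longer passed with the GC trend removed (adjusted p = 0.384) or with only these groups fitted (0.0735), nor UQCRFS1 with only these groups fitted (0.0824). Leaving out single libraries also ended both calls, among them replicate 2 of the low dose of Polygalae Radix (0.117 for CYC1 and 0.159 for UQCRFS1) and replicate 2 of the high dose of Aucklandiae Radix (0.212 and 0.12).

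The mitochondrial rRNA genes gave a further contrast, with protein genes of the same genome. The rRNA genes MT-RNR1 and MT-RNR2, which make the RNA of the mitochondrial ribosome, lie first on the heavy-strand transcript. At the high dose of Polygalae Radix MT-RNR1 rose by 1.44 (SE 0.13, adjusted p = 3.14e-13), from 4158 and 3934 CPM to 13088 and 8927, and MT-RNR2 by 0.44 (SE 0.08, adjusted p = 3.8e-06). Menthae Herba raised them without any called protein gene: MT-RNR1 went from 4290, 4410 and 4208 CPM to 8967, 8501 and 8874 (1.02, SE 0.11, adjusted p = 1.31e-10) and MT-RNR2 rose by 0.43. At the high dose of Aucklandiae Radix neither was called (0.17 and -0.07), beside falls of 12 protein genes. Saengmaek-san raised MT-RNR1 by 0.43 (adjusted p = 0.0478) and MT-RNR2 by 0.28 (adjusted p = 0.0226). The libraries were made with an mRNA kit, so how far their rRNA counts follow the amount in the cell was not tested.

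**Figure D3:**
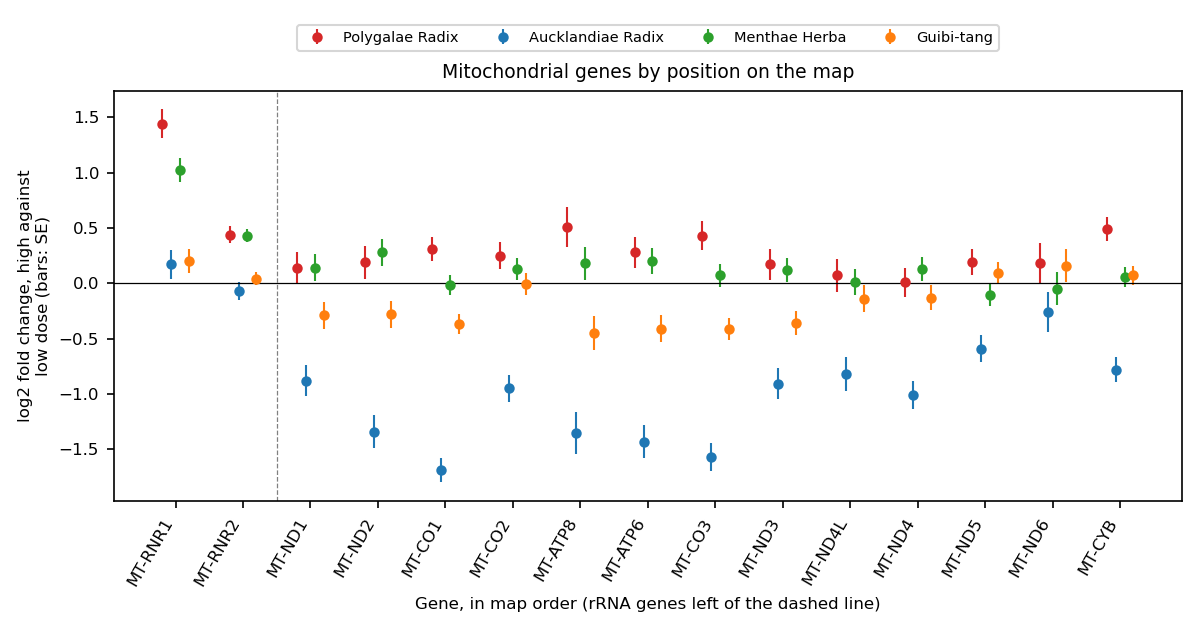
Log2 fold change of the high against the low dose, with its standard error as bars, for the mitochondrial rRNA genes and the 13 protein genes in the order of the genome map, in Guibi-tang, Menthae Herba, Aucklandiae Radix and Polygalae Radix. In Aucklandiae Radix the points drop from near 0 at the rRNA genes to -1.69 at MT-CO1 and stand at -0.26 at MT-ND6 and -0.78 at MT-CYB.

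Complex II, which has no mitochondrial subunit, showed how far subunits of 1 enzyme can diverge. Its catalytic pair is SDHA and the iron-sulphur protein SDHB, and SDHC and SDHD anchor it in the membrane. At the high dose of Polygalae Radix the falls were -1.81 for SDHA, -0.58 for SDHB, -1.11 for SDHC and -0.23 for SDHD. Under Aucklandiae Radix the changes were -1.04 for SDHA, 0.13 for SDHB (adjusted p = 0.063), -0.45 for SDHC and 0.18 for SDHD. In Guibi-tang SDHA fell by 0.43 while SDHB rose by 0.25. SDHB had 45.1, 45.9 and 45.2 CPM at the low dose of Guibi-tang, 53, 52.3 and 50.9 at the medium dose and 57.4, 48.4 and 56.8 at the high dose, where no treated library overlapped the low dose. In Soyo-san, Saengmaek-san, Menthae Herba and Saposhnikoviae Radix the 4 genes had log2 fold changes between -0.06 and 0.11, and none was called.

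**Figure D4:**
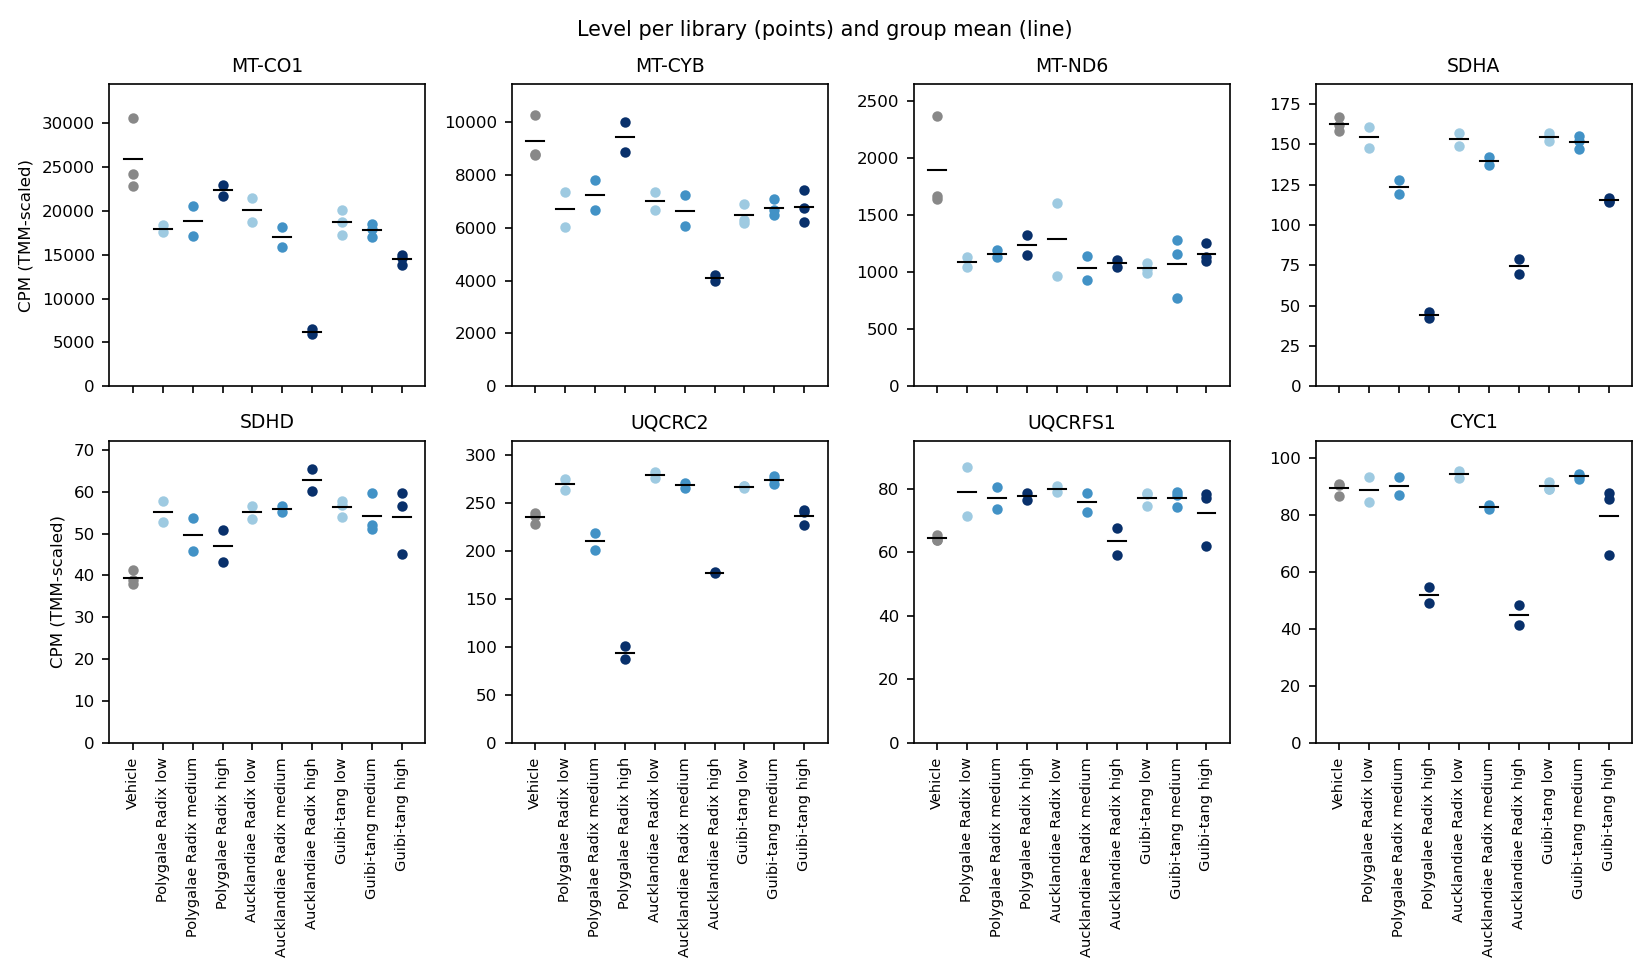
Level (CPM, TMM-scaled) in each library of 8 members in vehicle and at the low, medium and high dose of Polygalae Radix, Aucklandiae Radix and Guibi-tang. MT-CO1 is lowest at the high dose of Aucklandiae Radix (5914 and 6516), SDHA is lowest at the high dose of Polygalae Radix (46.3 and 42.4), and UQCRFS1 overlaps across the doses of Polygalae Radix.

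Guibi-tang at its high dose lowered some mitochondrial members by smaller amounts. Of the 13 members 6 were lower and none was higher, where 17.5% of all genes tested were called lower and 16.8% higher. MT-CO1 had 20126, 18706 and 17221 CPM at the low dose and 14570, 13838 and 14989 at the high dose (-0.37, SE 0.09, adjusted p = 0.000514). MT-ATP8, the lowest, had 1228, 1179 and 1563 CPM and then 981, 987 and 951 (-0.45, SE 0.15, adjusted p = 0.0173). In both genes all high-dose libraries lay below all low-dose libraries. MT-ND1 (-0.29), MT-ND3 (-0.36), MT-CO3 (-0.41) and MT-ATP6 (-0.41) were also called. The call of MT-ATP8 was lost without replicate 3 of the low dose (adjusted p = 0.155) or of the high dose (0.0519). That of MT-ND1 was lost with DESeq2 (adjusted p = 0.069) and without replicate 1 or 2 of either dose (0.0732 to 0.252). MT-ND6 had the highest change and was not called, with 1083, 1027 and 996 CPM and then 1099, 1130 and 1255 (0.16, SE 0.15, adjusted p = 0.45). Without overlap were 6 members below and 1 above, where 41.1% of all genes tested did not overlap.

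Of the nuclear members 10 fell and SDHB rose at the high dose of Guibi-tang. Of all genes tested 17.5% were called lower and 16.8% higher. Without overlap between doses were 24.1% of nuclear members, against 41.1% of all genes tested. SDHA had 155, 152 and 157 CPM and then 117, 114 and 115 (-0.43, SE 0.04, adjusted p = 4.23e-11), a uniform fall in all 3 libraries. Most of the other falls rested on 1 library. NDUFS8 (-0.32, SE 0.09, adjusted p = 0.00261) had 46.1 CPM in replicates 1 and 3 of the high dose and 34.1 in replicate 2, and NDUFB8 of complex I (-0.24, SE 0.07, adjusted p = 0.00904) had 45.5 and 49 there and 31.7 in replicate 2. COX7C, a small subunit of complex IV, had 67.1 and 68.8 CPM there and 41 in replicate 2, against 68, 69.8 and 69 at the low dose. That library held 0.206% of its counts in the nuclear members, against 0.247% and 0.244% in its partners. Without it, 3 nuclear members were lower and SDHB still higher, with NDUFS8 at -0.19 (adjusted p = 0.0903) and NDUFB8 at -0.07 (0.381). With only the groups compared in the fit, 5 were called.

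Saengmaek-san, the partner of Guibi-tang in set 13, had no member called at its high dose. The percentage of all genes called was 0.436%. Its 13 mitochondrial members all had a log2 fold change above 0, from 0.16 for MT-CO1 to 0.42 for MT-ND6, and 11 had an unadjusted p under 0.05, while DESeq2 also called none. With no low-count filter edgeR called all 13, so this count depends on the filter. The low-dose libraries were far apart: MT-ND1 had 6286, 7660 and 4826 CPM at the low dose and 8272, 7639 and 8576 at the high dose, which overlap. Without replicate 2 of the low dose, 5 mitochondrial members were called higher. No nuclear member had an unadjusted p under 0.05.

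The difference between Guibi-tang and Saengmaek-san in the change from low to high dose was called for 8 mitochondrial members, all lower under Guibi-tang, where 10.2% of all genes tested were called lower and 9.4% higher. It was largest for MT-ATP8 (-0.7, SE 0.21, adjusted p = 0.0135) and MT-ATP6 (-0.69, SE 0.17, adjusted p = 0.00165), and for MT-CO1 it was -0.54 (SE 0.12, adjusted p = 0.000844). Of the nuclear members 4 had a lower change, led by SDHA (-0.38, SE 0.06, adjusted p = 4.78e-06). Without replicate 3 of the low dose of Saengmaek-san 5 mitochondrial members remained past the threshold. The nuclear count was 10 without replicate 1 or without replicate 3 of the high dose of Guibi-tang, and 2 without replicate 2 of the low dose of either decoction or of the high dose of Saengmaek-san.

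Menthae Herba raised a few nuclear subunits at its high dose. Of 29 nuclear members 5 were higher and none was lower, where 10.8% of all genes tested were called higher and 12.5% lower. NDUFV2, a subunit of the NADH-oxidising part of complex I, had 79.3, 81.4 and 83.9 CPM at the low dose and 94.2, 105 and 99.4 at the high dose (0.28, SE 0.06, adjusted p = 0.000134). COX5A, a subunit of complex IV, had 68.8, 73 and 69.1 CPM and then 87.3, 79 and 84.2 (0.24, SE 0.06, adjusted p = 0.00265). In both genes the doses did not overlap, as in 58.6% of nuclear members and 38.9% of all genes tested. NDUFA9, NDUFA10 and UQCRC1 rose by 0.11 to 0.15. Leaving out replicate 1 of the low dose or replicate 2 or 3 of the high dose left 2 calls, and leaving out replicate 2 of the low dose left 3. No mitochondrial protein gene was called by edgeR or by DESeq2, and 1 had an unadjusted p under 0.05. The count was 7 with no low-count filter and 3 with only the groups compared in the fit. The highest change was that of MT-ND2 (0.28, SE 0.12, adjusted p = 0.0887).

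In the remaining extracts the members moved little. Saposhnikoviae Radix and Soyo-san had no member called by edgeR or by DESeq2, and none at an unadjusted p under 0.05, where 0.83% and 3.95% of all genes tested were called. With no low-count filter 1 mitochondrial member was called in each, and with only the groups compared 1 in Saposhnikoviae Radix. The log2 fold changes of all 42 members lay between -0.14 and 0.17 in Saposhnikoviae Radix and between -0.16 and 0.12 in Soyo-san. The difference in response between Menthae Herba and Saposhnikoviae Radix was called for no member (10.6% of all genes tested were called), with 2 nuclear members at an unadjusted p under 0.05 and 1 called by DESeq2. With no low-count filter that difference was called for 2 mitochondrial members and 1 nuclear. Okbyeongpung-san, with single libraries, has no replicate check: none of its 42 members differed by 1.5-fold from the low dose at the high or the medium dose, where 9.5% and 9.29% of all genes did, and at the high dose the medians were 0.13 for the mitochondrial and 0.01 for the nuclear members.

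At the medium doses the nuclear members of Polygalae Radix were already lower in part. Of 29 members 10 fell and none rose, where 5.09% of all genes tested were called lower and 3.33% higher. UQCRC2 had 264 and 275 CPM at the low dose, 201 and 219 at the medium dose and 87 and 101 at the high dose, so the libraries of the 3 doses were fully ordered (medium against low -0.36, SE 0.05, adjusted p = 1.27e-07). SDHA had 148 and 161, 128 and 119, and 46.3 and 42.4 CPM (medium against low -0.33, SE 0.05, adjusted p = 3.07e-05). NDUFA1, a small complex I subunit encoded on the X chromosome, had the largest change at the medium dose, from 31.7 and 30.8 to 19.8 and 24 CPM (-0.51, SE 0.12, adjusted p = 0.0028). Both comparisons use the same low-dose libraries. With only the 2 groups compared in the fit none of the 10 was called, and leaving out replicate 2 or 3 of the low dose, or replicate 2 of the medium dose, left 4.

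No mitochondrial member of Polygalae Radix was called at the medium dose by edgeR or DESeq2, and none had an unadjusted p under 0.05, while 1 was called with no low-count filter. The medium dose of Aucklandiae Radix had no member called by either tool (4.35% of all genes tested were called), with 2 mitochondrial and 4 nuclear members at an unadjusted p under 0.05. With no low-count filter 12 mitochondrial members were called, and with only the groups compared in the fit 1 mitochondrial and 1 nuclear. MT-CO1 stood there at 18174 and 15918 CPM, between the doses on either side. For Guibi-tang SDHB was called at the medium dose (0.2, SE 0.05, adjusted p = 0.0245), where 1.86% of all genes tested were called higher and 1.74% lower, and that call was lost when any low-dose library, or replicate 1 or 2 of the medium dose, was left out. The medium doses of Menthae Herba, Soyo-san, Saengmaek-san and Saposhnikoviae Radix had no member called by either tool, where 0.118%, 0.00589%, 0% and 0.0118% of all genes were. At an unadjusted p under 0.05 there were 1, 1, 2 and 0 mitochondrial members, in that order, and no nuclear member. With no low-count filter edgeR called 3, 3, 9 and 1 mitochondrial members in that order, and with only the groups compared 4 for Menthae Herba and 1 for Soyo-san.

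Already at the low doses the members differed from vehicle, and in opposite directions by genome. Over the mean of the 7 low-dose groups with replicates, all 13 mitochondrial members were lower than in vehicle and 21 nuclear members were higher and 2 lower, where 24% of all genes tested were called higher and 23.5% lower. The medians were -0.55 and 0.24, against 0 over all genes. MT-ND1 of complex I fell most (-0.86, SE 0.08, adjusted p = 1.08e-11), with a vehicle level of 13905 ± 2481 CPM per kilobase (SD, n = 3) and 5049 to 9630 over the 18 low-dose libraries. MT-ND3 fell least (-0.26, SE 0.09, adjusted p = 0.0124). Among nuclear members COX7C rose most (0.67, SE 0.07, adjusted p = 1.26e-10), from 27.7 ± 2.27 CPM per kilobase in vehicle to 38.8 to 49.4 at the low doses, without overlap. SDHD rose by 0.5 (SE 0.06, adjusted p = 3.59e-10), while SDHA (-0.06) and SDHB (0.07) were not called, and NDUFS8 fell by 0.31.

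The vehicle libraries carry a set code of their own, so treatment and anything that goes with that code cannot be told apart in this contrast. Of the GC slopes given above, those of 2 vehicle libraries (0.198 and 0.2) were the highest, while the other vehicle library (0.087) lay below 1 high-dose library of Polygalae Radix (0.105). With that dependence removed, 13 mitochondrial members were lower, 23 nuclear members higher and 1 lower, and NDUFB10, which fell by 0.15 before, stood at 0.01. A member can therefore stand below the low dose and above vehicle, as COX7C did under Polygalae Radix (-0.58 against the low dose and 0.22 against vehicle).

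The high doses showed the same split against vehicle in most extracts, with the vehicle libraries shared by all of these contrasts. Under Aucklandiae Radix 13 mitochondrial members were lower, and 8 nuclear members were higher and 14 lower (36.6% of all genes called higher and 36.7% lower). Menthae Herba had 12 mitochondrial members lower and 23 nuclear members higher and 1 lower (24% and 24.2%). Guibi-tang had 13 mitochondrial members lower and 16 nuclear members higher and 6 lower (25.6% and 25.4%). The remaining extracts had 11 to 12 mitochondrial members lower and 18 to 20 nuclear members higher and 1 to 2 lower, where the percentages of all genes called higher and lower were 20.2% and 19.9% for Saposhnikoviae Radix, 20.5% and 20% for Saengmaek-san, and 19.8% and 19% for Soyo-san.

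The rest of the oxidative machinery was read from further lists, whose counts stand against 31.1% of all genes called higher and 33% called lower under Polygalae Radix. Nuclear complex V genes fell with the members under Polygalae Radix: 17 of 18 were lower and none higher, led by ATP5F1A (-1.95, SE 0.05, adjusted p = 4.3e-34) and ATP5F1B (-1.52), the alternating subunits of its catalytic head. Of 33 other nuclear subunits of complexes I, III and IV, 30 were lower and 1 higher. Of 13 mitochondrial chaperones and proteases 10 were lower and none higher, led by the folding chaperones HSPD1 (-1.8) and HSPA9 (-1.48). Among the 77 proteins of the mitochondrial ribosome 40 were lower and 14 higher, and among 46 assembly factors 20 were lower and 14 higher, with COX10 and SDHAF1 both at 1.11. The share of assembly factors called higher was near that of all genes.

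Genes that act on the mitochondrial genome itself were called in both directions under Polygalae Radix. Of 31 genes for its transcription and RNA handling 14 were higher and 10 lower, from TWNK, the replicative helicase (1.39, SE 0.07, adjusted p = 9.23e-22), to LRPPRC, which stabilises mitochondrial mRNA (-1.1, SE 0.06, adjusted p = 9.63e-21). The share called lower was near that of all genes. The polymerase POLRMT (0.05) and the packaging factor TFAM (0.1), which were named after their values were seen, were not called. Of 8 biogenesis regulators 6 were higher and none lower, led by PPRC1 (1.17) and PPARGC1B (0.96), both coactivators of respiratory genes. Glycolysis genes, outside the respiratory chain, were lower in 16 of 18, with ALDOC at -2.92, PGK1 at -2.28 and PKM at -2.0.

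Under Aucklandiae Radix, where 33.9% of all genes were called higher and 35.5% lower, 14 of 18 nuclear complex V genes were lower and 1 higher, led by ATP5MC1, a copy of the membrane ring subunit (-1.43), and 53 of 77 proteins of the mitochondrial ribosome were lower and 7 higher. Of the 31 genes for mitochondrial transcription and RNA handling 18 were lower and 5 higher, led by TFB1M, a methyltransferase of the small mitochondrial rRNA (-1.45, SE 0.07, adjusted p = 7.9e-24). LRPPRC (-0.77), TFAM (-0.51) and POLRMT (-0.29), named after their values were seen, were among those that fell. Of 8 biogenesis regulators 4 were higher and 3 lower, with PPARGC1A, the coactivator PGC-1 alpha, at -2.14 and GABPA at 1.17. Of 13 chaperones and proteases 5 were higher and 5 lower, shares near those of all genes, with HSPD1 at 0.96 and TRAP1 at -1.53. Glycolysis genes were lower in 12 of 18 and higher in 2.

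Under Guibi-tang, where 16.8% of all genes were called higher and 17.5% lower, the same lists held 5 of 18 complex V genes lower and none higher, and 9 of 31 genes of mitochondrial transcription and RNA handling higher and 4 lower. Menthae Herba, where 10.8% of all genes were called higher and 12.5% lower, had 13 of these 31 higher and 1 lower. It also had 16 of 77 mitochondrial ribosomal proteins higher and 1 lower, and 14 of 18 glycolysis genes higher and none lower. Among the glycolysis genes was PDK1, which holds pyruvate back from oxidation in the mitochondria, at 0.69 (SE 0.08, adjusted p = 5.86e-09). Soyo-san, where 3.95% of all genes were called in either direction, had 9 of 18 glycolysis genes higher and none lower beside no called member.

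**Figure D5:**
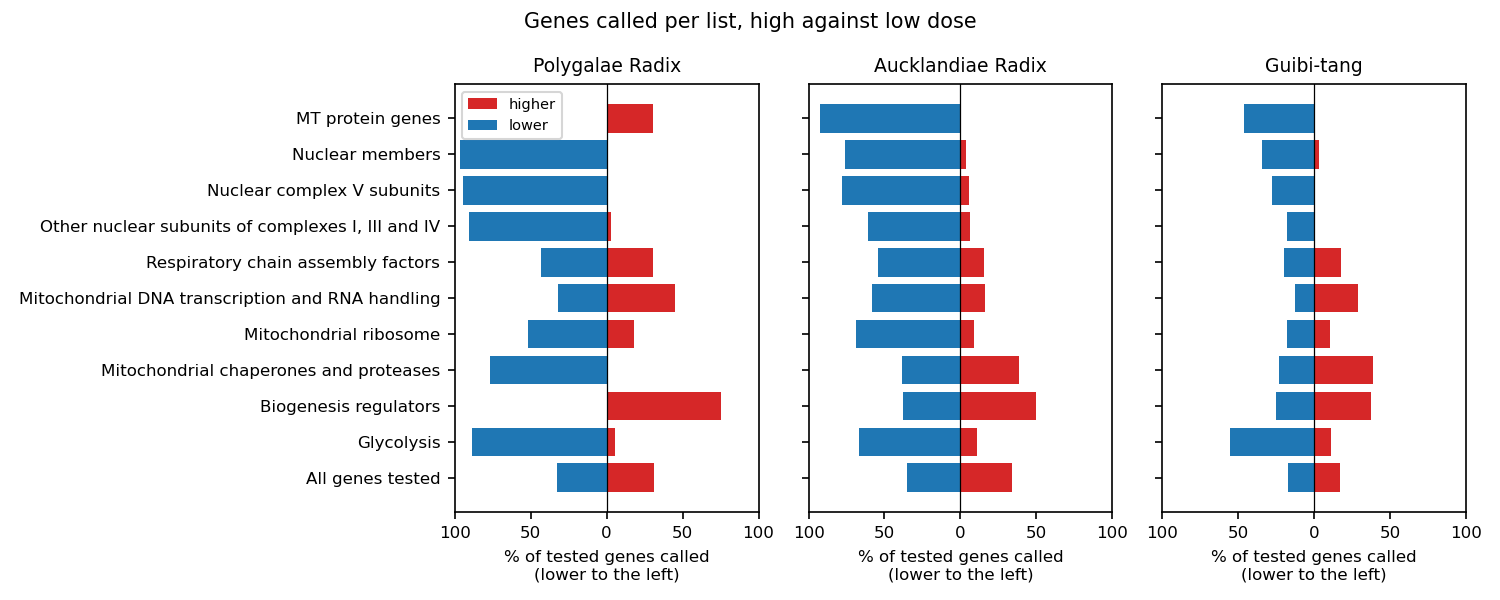
Percentage of each gene list called higher (to the right) or lower (to the left) at the high against the low dose in Polygalae Radix, Aucklandiae Radix and Guibi-tang, with all genes tested for reference. In Polygalae Radix 28 of 29 nuclear members, 17 of 18 nuclear complex V genes and 16 of 18 glycolysis genes were lower. In Aucklandiae Radix 12 of 13 mitochondrial protein genes were lower.

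Copies of mitochondrial genes inserted in the nuclear genome can take up reads of the mitochondrial ones. Of 12 such copies looked for, 9 passed the low-count filter. Under Aucklandiae Radix 4 of these 9 were lower, where 35.5% of all genes tested were called lower. Among them were MTATP6P1 (-1.31, SE 0.17, adjusted p = 2.94e-09) and MTCO1P12 (-1.7, SE 0.26, adjusted p = 2.16e-07), beside -1.43 for MT-ATP6 and -1.69 for MT-CO1. Under Polygalae Radix 3 were higher, a share near the 31.1% of all genes called higher. Among these was MTATP6P1 (0.41), beside 0.28 for MT-ATP6. Whether reads were shared between a gene and its copy was not tested.

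Motifs of the known regulators were searched in all promoters alike, on both strands. RefSeq promoters from 250 bases before to 50 after the start were found for 24 of the 29 nuclear members. Of these 6 (25%) held the NRF1 motif GCGCANGCG, against 7.52% of all 35116 promoters, 9 (37.5%) held the ETS motif CCGGAAG, against 10.3%, and 4 (16.7%) held the YY1 motif AAGATGGCG, against 1.75%. Any of them stood in 14 (58.3%), against 17.5% of all promoters. At the high dose of Polygalae Radix the median log2 fold change was -0.68 over the 14 promoters with a match and -0.65 over the 10 without. For Aucklandiae Radix it was -0.26 with a match and -0.59 without. These are descriptions over small groups of genes, with no test.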

How the data were processed

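RNA-seq was done on HepG2 cells with a directional mRNA kit and 100 bp paired reads, per the labels' protocols. The deposited values are expected counts per gene, which the authors made with FastQC 0.11.9, Trim Galore 0.6.5, STAR 2.7.3a and RSEM 1.3.3 on GRCh38, per the submitters' processing notes. Neither the release of the gene annotation nor whether counting used strand is given in the sources used here. Of the values 10.0% were not whole, and all were rounded before fitting.

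Genes were kept by edgeR's filterByExpr (minimum count 10), which left 16982. One edgeR 4.0.16 quasi-likelihood fit (R 4.3.3, TMM scaling) covered the 57 libraries of the 22 groups with replicates, and p-values were adjusted by Benjamini-Hochberg over all genes tested, with a threshold of 0.05. Replicates spread by 4.7% (biological coefficient of variation). Okbyeongpung-san was compared by log2 CPM with a prior count of 2. Levels per kilobase used the longest principal transcript of GENCODE 29. The scripts were tested on simulated data.

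Any of the 42 members could be named. From each further list up to 3 called genes with the largest changes were named. The members and lists were chosen with earlier results of these data known. Alternatives were DESeq2 1.42.0, RLE scaling, scaling without mitochondrial genes, no low-count filter, a 1 CPM filter, fits of only the groups compared, a replicate block, removal of the GC trend, vehicle as the reference, and each library left out.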

Additional observations from a re-analysis of the deposited data

Results flagged for a closer look

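The responses of the members differed between the extracts of set 11 and between those of set 13, by a test of the difference itself in the edgeR fit. In set 11, 12 mitochondrial and 19 nuclear members had a change from low to high dose that differed between Aucklandiae Radix and Polygalae Radix. Of all genes tested, 31.4% had a higher and 28.7% a lower change under Aucklandiae Radix. Counted in either direction, the nuclear share was near that of all genes. MT-CO1 was -1.69 under the former and 0.31 under the latter, and UQCRC1 was lower under both. In set 13, 8 mitochondrial and 4 nuclear members had a change that was lower under Guibi-tang than under Saengmaek-san. Among them were MT-ND1 at -0.67 (adjusted p = 0.00186) and SDHA at -0.38 (adjusted p = 4.78e-06). Of all genes tested 10.2% had a lower change there and 9.4% a higher one, and the nuclear share was near the former.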

How the results depend on the processing

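The 28 nuclear calls of Polygalae Radix and the 12 mitochondrial calls of Aucklandiae Radix were 28 and 12 under RLE scaling, scaling without mitochondrial genes, GC removal and DESeq2. Small counts moved with the set of genes tested or fitted, and the cause was not tested. Nuclear members rest on far fewer counts than mitochondrial ones.

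With no low-count filter, mitochondrial members called at the high dose were 11 for Polygalae Radix, 7 for Menthae Herba, 1 for Saposhnikoviae Radix, 13 for Saengmaek-san, 10 for Guibi-tang and 1 for Soyo-san. At the medium dose they were 1 for Polygalae Radix, 12 for Aucklandiae Radix, 3 for Menthae Herba, 1 for Saposhnikoviae Radix, 9 for Saengmaek-san, 3 for Guibi-tang and 3 for Soyo-san. The differences within set 12 were then 2 mitochondrial and 1 nuclear, and within set 13 8 nuclear. With only the groups compared in the fit, the high dose had 8 mitochondrial members for Polygalae Radix, 3 for Menthae Herba and 1 for Saposhnikoviae Radix, and 5 nuclear members for Guibi-tang. The medium dose had 0 nuclear members for Polygalae Radix, 1 mitochondrial and 1 nuclear for Aucklandiae Radix, 4 mitochondrial for Menthae Herba and 1 for Soyo-san, and the differences were 1 nuclear in set 12 and 2 in set 13. A 1 CPM filter and DESeq2 each gave 1 nuclear difference in set 12.

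With vehicle as the reference, mitochondrial and nuclear members called at the high dose were 8 mitochondrial for Polygalae Radix, 12 and 24 for Menthae Herba, 11 and 19 for Saposhnikoviae Radix, 11 and 21 for Saengmaek-san, 13 and 22 for Guibi-tang, and 12 and 22 for Soyo-san. Signs of log2 fold changes turned for 12 mitochondrial and 5 nuclear members in Polygalae Radix, 0 and 6 in Aucklandiae Radix, 10 and 2 in Menthae Herba, 9 and 8 in Saposhnikoviae Radix, 13 and 3 in Saengmaek-san, 3 and 18 in Guibi-tang, and 2 and 4 in Soyo-san. Values are given for those that were called against the low dose or are named by rule. For Polygalae Radix these were MT-ND4 (-0.54), MT-ND6 (-0.61), MT-CO1 (-0.21), MT-CO3 (-0.03), MT-ATP8 (-0.43), NDUFV2 (0.01), SDHD (0.25), UQCRFS1 (0.27), UQCRH (0.03) and COX7C (0.22). For Aucklandiae Radix they were NDUFA2 (0.11), NDUFA9 (0.24), NDUFB5 (0.19) and COX5B (0.05), for Menthae Herba MT-ND2 (-0.47) and SDHC (0.21), for Saposhnikoviae Radix MT-ND6 (-0.6), and for Saengmaek-san MT-ND6 (-0.61) and MT-CO1 (-0.37). For Guibi-tang they were MT-ND6 (-0.7), SDHC (0.15), SDHD (0.46), UQCRC2 (0.02), UQCRFS1 (0.17), UQCRB (0.02) and COX7C (0.44), and for Soyo-san SDHC (0.22) and SDHD (0.46). With the GC trend removed, NDUFB10 at the low doses against vehicle was 0.01.

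Leaving out 1 library at a time gave 1 to 4 mitochondrial members for the high and 4 to 11 nuclear members for the medium dose of Polygalae Radix, 2 to 5 nuclear for Menthae Herba, 0 to 5 mitochondrial for Saengmaek-san, and 4 to 14 nuclear for the high and 0 to 1 for the medium dose of Guibi-tang. The differences were 0 to 1 nuclear in set 12, and 5 to 11 mitochondrial and 2 to 10 nuclear in set 13.

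Same-numbered libraries of different doses deviated from their group means with correlations of -0.06 to 0.11 over 36 pairs, so no pairing by replicate number was seen. Taken over all genes in groups of 2 or 3 libraries, such correlations cannot exclude pairing. With a replicate block the high dose had 5 mitochondrial and 28 nuclear members for Polygalae Radix, and 12 mitochondrial and 25 nuclear for Aucklandiae Radix, and set 12 had 1 nuclear difference. No other count moved by more than 1.5 times under the block, and MT-ND1 in Guibi-tang no longer passed (adjusted p = 0.0526).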
